A study of Homo sapiens with 4 samples.

Results

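The genes described here are 42 components of AMPK and mTOR signaling, taken by symbol from a table of gene expression in the papillary thyroid carcinoma cell line B-CPAP. They comprise 10 AMPK subunits and upstream kinases, 7 subunits of the mTOR complexes, 4 genes of the TSC complex and its target RHEB, 9 Rag and Ragulator genes, 6 regulators of the Rag GTPases and 6 outputs. All 42 had a row, and 39 reached 0.5 FPKM (fragments scaled by transcript length and by library size) in 2 or more libraries, among 13291 tested rows of 58857 named rows. The study compared 2 shLDHA libraries, from cells given a lentiviral hairpin against LDHA and selected with puromycin, with 2 shGFP libraries, from control cells with a hairpin against GFP. LDHA encodes the lactate dehydrogenase subunit that turns pyruvate into lactate, and the comparison asks how the transcriptome differs after its knockdown. Neither the labels nor the methods state whether libraries of a group came from separate cultures or carried separate hairpins. The p-values therefore reflect no more than the spread among the 4 libraries, and that spread may be technical.

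AMPK is a heterotrimeric kinase that is switched on when ATP runs low. It restrains mTOR complex 1 (mTORC1), a growth-promoting kinase complex, by phosphorylating TSC2 and the mTORC1 subunit raptor. Amino acids act on mTORC1 through the Rag GTPases, which are held on the lysosome by the Ragulator complex. These signals run through phosphorylation, which RNA-Seq does not measure, so the values below are transcript levels only.

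LDHA itself stood at 184 and 203 FPKM after scaling in shLDHA libraries 1 and 2, against 1049 and 1056 in shGFP libraries 1 and 2, a log2 fold change of -2.44 (SE 0.08, limma adjusted p = 0.00756). The FPKM summed to 1119483 and 1144490 in the shLDHA libraries, against 996249 and 1003697 in the shGFP libraries. The estimated depth was between 19600000 and 26600000 fragments per library. The median gene was lower in the shLDHA libraries by -0.33 on the log2 scale in the values as deposited, and scaling by a trimmed mean of M values (TMM) removed this shift, so changes are relative to it. Library shLDHA 2 held 3.53% of its FPKM in rows with no gene name, against 0.361% to 0.440% in the others. Leaving it out moved the median log2 fold change of the members from -0.13 to -0.03. Of the thyroid and epithelial markers, PAX8, KRT7, KRT8 and KRT18 were present at 40.7 FPKM or more in every library, NKX2-1 and TSHR were at 0, and KRT19, EPCAM and CDH1 did not pass 0.2 FPKM. The thyroid transcription factors FOXE1 and HHEX were lower in shLDHA cells (log2 fold change -0.77 and -0.70, limma adjusted p = 0.0294 and 0.0348). Of markers of other cell types, PTPRC, CD3E and DCN were at 0, and CD68 was higher at 45.1 and 34.1 deposited FPKM in shLDHA cells, against 30.3 and 29.9 in shGFP cells (log2 fold change after scaling 0.72, limma adjusted p = 0.0141). PDGFRB was lower at 8.41 and 6.57 FPKM in shLDHA cells, against 15.2 and 16.95 in shGFP cells (-0.76, limma adjusted p = 0.0176), and COL1A1 was not called at 0.78 to 3.12 FPKM. The part of these markers in the results was not tested. In bulk RNA, fewer cells of a type and less RNA per cell cannot be told apart.

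In shLDHA cells, 11 of the 39 tested members were higher and 6 were lower at an adjusted p under 0.05 (limma on log2(FPKM + 0.1), Benjamini-Hochberg adjustment over all rows), and 22 were not called. The higher members were STK11, MLST8, AKT1S1, TSC2, RRAGA, RRAGD, LAMTOR1, LAMTOR2, LAMTOR4, LAMTOR5 and CASTOR1. The lower members were PRKAB2, CAMKK2, MTOR, MAPKAP1, FNIP1 and EIF4EBP2. The share of higher members was 28.2%, beside 18.1% of all tested rows, and that of lower members was 15.4%, beside 12.9%. The median log2 fold change was -0.13 over the members and 0.00 over all tested rows. The Rag and Ragulator genes gave 6 of the 11 higher calls and none of the lower ones, and the AMPK group gave 1 higher and 2 lower. The scale understates the change of genes with low FPKM.

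**Figure D1:**
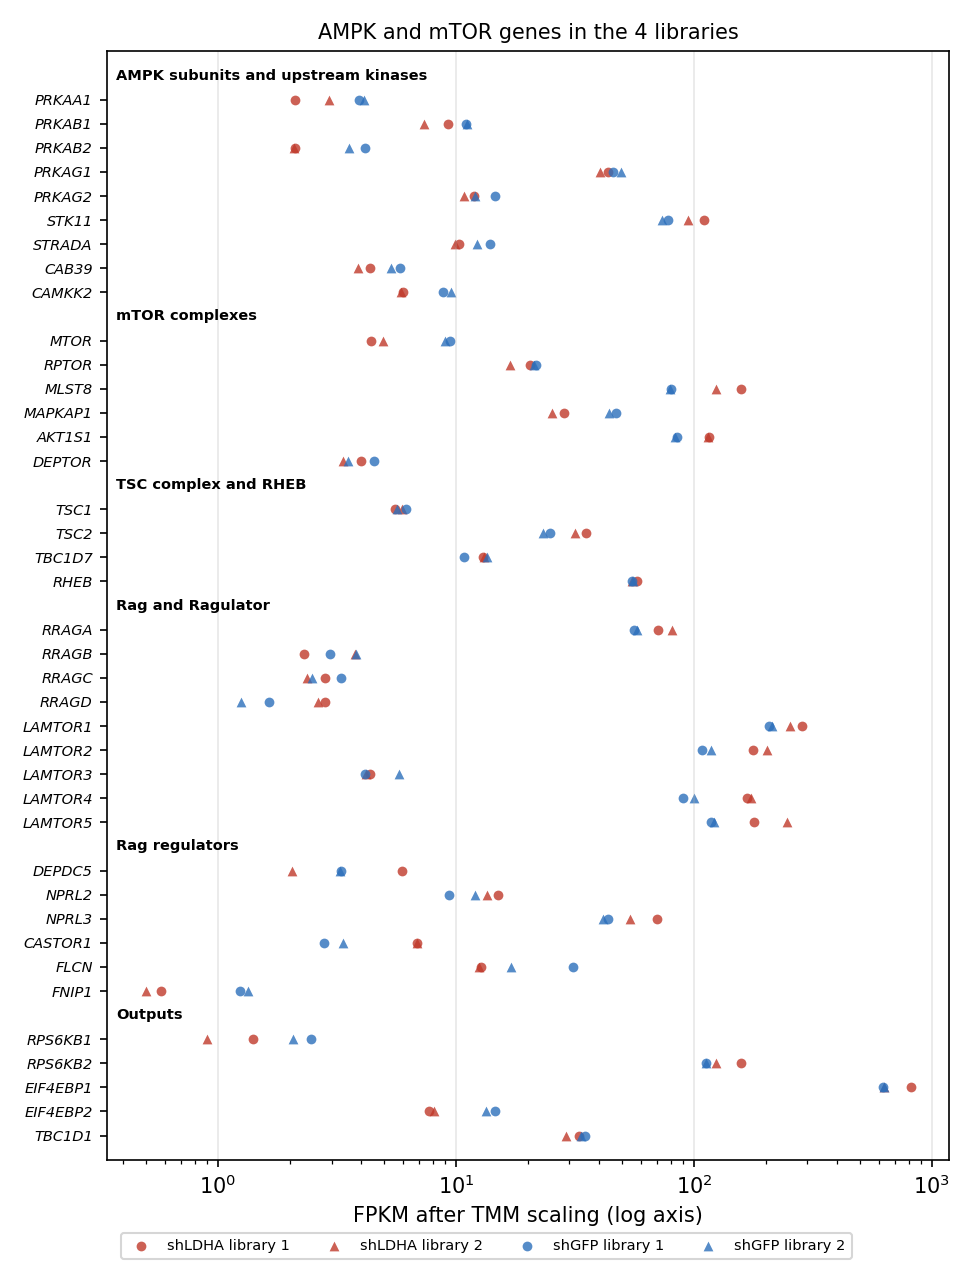
FPKM after TMM scaling (horizontal log axis) of the 39 tested members, grouped by role, with 1 point for each of the 2 shLDHA and 2 shGFP libraries. EIF4EBP1 lies highest, at 626 FPKM or more in every library, FNIP1 lies lowest, and the Ragulator genes LAMTOR1, LAMTOR2, LAMTOR4 and LAMTOR5 have both shLDHA points to the right of both shGFP points.

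The number of calls in each direction depended on the scaling and on the libraries. In the values as deposited, 3 members were higher (6.8% of all rows) and 11 lower (23.4% of all rows). Without shGFP library 1 or without shGFP library 2, limma called 0 members and 0 genes of the whole table, with 7 members higher in both cases and 5 or 6 members lower at an unadjusted p under 0.05. At that threshold 2095 and 2241 genes of the table were higher and 1324 and 1455 lower.

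The AMPK trimer is built from a catalytic alpha, a scaffolding beta and a nucleotide-binding gamma subunit, and 2 of its group fell in shLDHA cells: PRKAB2, the gene of the beta2 subunit, and CAMKK2, a calcium-dependent kinase that activates AMPK. PRKAB2 (chr1:146626685-146644129, minus strand, GRCh37, 8 exons) stood at 2.10 and 2.08 scaled FPKM in shLDHA libraries 1 and 2, against 4.16 and 3.54 in shGFP libraries 1 and 2. The shLDHA libraries lay close together (SD 0.0152 FPKM) and below both shGFP libraries, and the log2 fold change was -0.85 (SE 0.17, limma adjusted p = 0.0279). Without shLDHA library 1 the adjusted p of PRKAB2 was 0.058 and without shLDHA library 2 it was 0.0607. CAMKK2 (chr12:121675478-121736111, minus strand, 17 exons) had 5.999 and 5.89 scaled FPKM in shLDHA cells, against 8.81 and 9.51 in shGFP cells, a log2 fold change of -0.62 (SE 0.11, limma adjusted p = 0.0229). Its level in shLDHA cells was 0.65 times that in shGFP cells, with no overlap of the groups.

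STK11, which encodes LKB1, the main upstream kinase of AMPK, went the other way. It stood at 109.8 and 94.7 scaled FPKM in shLDHA libraries 1 and 2, against 77.7 and 73.7 in shGFP libraries, a log2 fold change of 0.43 (SE 0.10, limma adjusted p = 0.0399). This direction depended on the scaling: with FPKM rescaled to equal totals (TPM) the log2 fold change of STK11 was -0.09. The partners that hold LKB1 in its active form, STRADA (a pseudokinase) and CAB39 (a scaffold protein), were not called, with log2 fold changes of -0.37 and -0.43 (limma adjusted p = 0.0687 and 0.0792). The exons of STRADA lie to 91.0% under another annotated gene on the same strand, so its reads cannot be assigned with certainty.

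PRKAA1, the gene of the catalytic alpha1 subunit, had 2.11 and 2.92 scaled FPKM in shLDHA libraries 1 and 2, against 3.90 and 4.11 in shGFP libraries 1 and 2. Both shLDHA values were the lower ones, but the shLDHA libraries were spread (SD 0.57 FPKM) and the gene was not called (log2 fold change -0.67, SE 0.21, limma adjusted p = 0.0745). Before any scaling PRKAA1 differed by -0.999 on the log2 scale, and the adjusted p was 0.0244. PRKAA2, the gene of the alpha2 subunit, was below the limit for testing at 0.21 and 0.16 deposited FPKM in shLDHA cells, against 0.38 and 0.30 in shGFP cells. The FPKM of PRKAA2 was therefore low in all 4 libraries. PRKAB1, PRKAG1 and PRKAG2, the genes of the beta1 and the gamma subunits present here, had log2 fold changes of -0.42, -0.19 and -0.22 and were not called. All exons of PRKAG1 lie under other annotated genes. Within a library, the ratio of PRKAB1 to PRKAB2 does not depend on scaling, and it was 4.40 and 3.53 in shLDHA libraries against 2.66 and 3.16 in shGFP libraries. The beta1 gene thus stood above the beta2 gene in every library, and the ratio was higher in both shLDHA libraries. Such a ratio still keeps the trend of fold change with transcript length and GC content, which ran through the whole table. With offsets for both, the log2 fold changes lay close together, at -0.38 for PRKAB1 and -0.47 for PRKAB2.

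mTOR is the kinase of 2 complexes: mTORC1, with raptor (RPTOR), PRAS40 (AKT1S1), DEPTOR and MLST8, and mTORC2, with rictor (RICTOR), SIN1 (MAPKAP1), DEPTOR and MLST8. The kinase gene and the mTORC2 subunit SIN1 fell, while the shared subunit MLST8 and the mTORC1 inhibitor PRAS40 rose. MTOR (chr1:11166592-11322613, minus strand, 58 exons) had 4.40 and 4.95 scaled FPKM in shLDHA libraries 1 and 2, against 9.42 and 8.97 in shGFP libraries 1 and 2. Its mean was 4.68 ± 0.39 FPKM in shLDHA cells and 9.19 ± 0.32 FPKM in shGFP cells (SD, n = 2 each). The log2 fold change was -0.96 (SE 0.12, limma adjusted p = 0.0131), so that MTOR transcripts were at 0.51 times the shGFP level. MAPKAP1 (chr9:128199672-128469513, minus strand, 12 exons) had 28.5 and 25.4 scaled FPKM in shLDHA cells, against 47.3 and 43.8 in shGFP cells, a log2 fold change of -0.76 (SE 0.10, limma adjusted p = 0.0131). MTOR and MAPKAP1 kept their calls in each of 11 alternatives of scaling, filter, pseudocount, variance model, block and offset.

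MLST8, a WD-repeat protein that binds the kinase domain, stood at 158 and 124 scaled FPKM in shLDHA libraries 1 and 2, against 80.0 and 79.0 in shGFP libraries 1 and 2. All shLDHA values were above all shGFP values, with the wider spread among the shLDHA libraries (log2 fold change 0.82, SE 0.13, limma adjusted p = 0.0193). An annotated gene on the other strand overlaps 12.0% of the exons of MLST8. AKT1S1 had 116 and 114 scaled FPKM in shLDHA cells, against 84.9 and 83.5 in shGFP cells, a log2 fold change of 0.45 (SE 0.07, limma adjusted p = 0.0158). With TPM its log2 fold change was -0.07, so the direction of AKT1S1 is relative to the scaling. RPTOR was not called, with 20.4 and 16.9 scaled FPKM in shLDHA cells, against 21.7 and 21.3 in shGFP cells (log2 fold change -0.21, limma adjusted p = 0.243). DEPTOR, an inhibitor of both complexes, was not called either, with a log2 fold change of -0.13. RICTOR, which defines mTORC2, was below the limit, at 0.18 and 0.10 deposited FPKM in shLDHA cells, against 0.42 and 0.61 in shGFP cells.

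The ratios to MTOR within each library do not depend on scaling, but they keep the trend with transcript length and GC content that ran through the whole table. MLST8 exceeded MTOR 35.9-fold and 25.1-fold in shLDHA libraries 1 and 2, against 8.49-fold and 8.81-fold in shGFP libraries 1 and 2. For AKT1S1 these ratios were 26.4 and 23.1 in shLDHA cells, against 9.02 and 9.31 in shGFP cells. RPTOR, which did not pass the test itself, stood at 4.64 and 3.42 times MTOR in shLDHA cells, against 2.31 and 2.37 times in shGFP cells. The ratio of MAPKAP1 to MTOR was close in the groups, at 6.48 and 5.13 in shLDHA cells, against 5.02 and 4.89 in shGFP cells. With offsets for length and GC content the log2 fold changes lay closer together, at -0.59 for MTOR, 0.13 for MLST8 and -0.25 for AKT1S1.

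**Figure D2:**
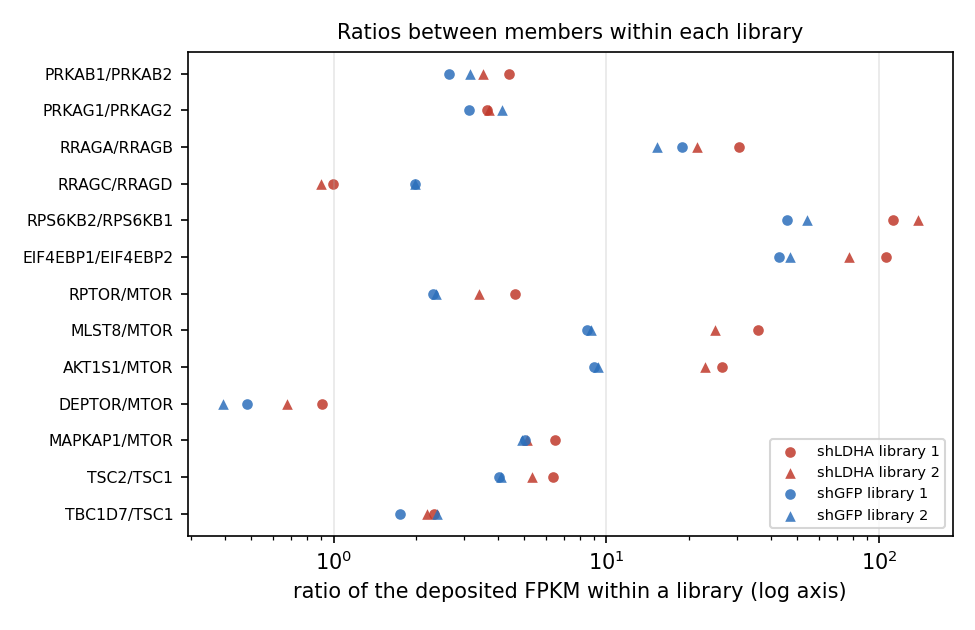
Ratio of the deposited FPKM of 2 members within each library (horizontal log axis), with 1 point for each of the 2 shLDHA and 2 shGFP libraries. MLST8/MTOR is 25.1 or more in shLDHA libraries and 8.81 or less in shGFP libraries, and RRAGC/RRAGD is near 1 in shLDHA libraries and near 2 in shGFP libraries.

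The TSC complex, made of TSC1, TSC2 and TBC1D7, switches off the GTPase RHEB, the direct activator of mTORC1. TSC2, the GTPase-activating subunit (chr16:2097968-2139492, plus strand, 42 exons), was the member of this group that rose. It had 35.4 and 31.5 scaled FPKM in shLDHA libraries 1 and 2, against 24.8 and 23.3 in shGFP libraries 1 and 2, a log2 fold change of 0.47 (SE 0.10, limma adjusted p = 0.0304). With TPM the log2 fold change of TSC2 was -0.05, and 12.2% of its exons overlap PKD1 on the other strand. TSC1, the stabilising subunit, had 5.57 and 5.92 scaled FPKM in shLDHA cells, against 6.16 and 5.67 in shGFP cells, and the groups overlapped (log2 fold change -0.04, limma adjusted p = 0.822). The ratio of TSC2 to TSC1 was 6.35 and 5.32 in shLDHA libraries, against 4.03 and 4.11 in shGFP libraries. It too keeps the trend with transcript length and GC content. Offsets for both gave log2 fold changes of 0.35 for TSC2 and 0.41 for TSC1, so the difference between these genes was not kept. TBC1D7 and RHEB were not called, with log2 fold changes of 0.11 and 0.03. RHEB had 57.9 and 55.2 scaled FPKM in shLDHA cells, against 55.1 and 55.4 in shGFP cells, a difference within the spread of the shLDHA libraries.

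The Rag GTPases work as heterodimers of RagA or RagB (RRAGA, RRAGB) with RagC or RagD (RRAGC, RRAGD), and Ragulator is the pentamer of LAMTOR1 to LAMTOR5 that anchors them. In this group 6 of 9 genes rose in shLDHA cells and none fell, with a median log2 fold change of 0.40, beside 18.1% of all rows higher. LAMTOR1, LAMTOR2, LAMTOR4 and LAMTOR5 are among the shortest 1199 genes, of which 38.8% were higher, and 1 gene of the group was higher with an offset for transcript length and 2 with offsets for length and GC content. LAMTOR4 (chr7:99746535-99753567, plus strand, 4 exons) stood at 168 and 174 scaled FPKM in shLDHA libraries 1 and 2, against 89.8 and 99.6 in shGFP libraries 1 and 2. It had the smallest adjusted p of all members (log2 fold change 0.85, SE 0.08, limma adjusted p = 0.00897). LAMTOR2 had 177 and 204 scaled FPKM in shLDHA cells, against 108 and 119 in shGFP cells, a log2 fold change of 0.74 (SE 0.10, limma adjusted p = 0.015). The rise of LAMTOR5 rested on more scattered values, 178 and 247 scaled FPKM in shLDHA cells, against 118 and 122 in shGFP cells (log2 fold change 0.81, SE 0.17, limma adjusted p = 0.0323). An annotated gene on the other strand overlaps 17.6% of the exons of LAMTOR5.

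LAMTOR1, the lipid-anchored subunit that holds the pentamer on the lysosomal membrane, showed the smallest rise. Its values were 285 and 252 scaled FPKM in shLDHA cells, against 207 and 213 in shGFP cells, a log2 fold change of 0.35 (SE 0.09, limma adjusted p = 0.0474). With TPM the log2 fold change of LAMTOR1 was -0.17, and its call was kept in 2 of 11 alternatives. LAMTOR3 was the exception in the pentamer, with 4.37 and 4.19 scaled FPKM in shLDHA cells, against 4.16 and 5.74 in shGFP cells. Its groups overlapped (log2 fold change -0.19, limma adjusted p = 0.494), and its FPKM was far below that of the other 4 subunits. LAMTOR3 and LAMTOR5 have annotated pseudogene copies, which could take part of their reads. The same holds for RRAGA, RHEB, CAB39, EIF4EBP1 and EIF4EBP2.

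RRAGA, an intronless gene, had 70.4 and 80.6 scaled FPKM in shLDHA libraries 1 and 2, against 56.2 and 57.8 in shGFP libraries 1 and 2 (log2 fold change 0.40, SE 0.09, limma adjusted p = 0.0404). Its direction was relative to the scaling, at -0.12 with TPM, and its call was kept in 2 of 11 alternatives. RRAGD (chr6:90074335-90121992, minus strand, 7 exons) had 2.82 and 2.63 scaled FPKM in shLDHA cells, against 1.64 and 1.25 in shGFP cells. All shLDHA values were higher, and the log2 fold change was 0.88 (SE 0.22, limma adjusted p = 0.0445). Without shLDHA library 1 the adjusted p of RRAGD was 0.113, and without shLDHA library 2 it was 0.0935. RRAGB and RRAGC were not called, with log2 fold changes of -0.18 and -0.15. The ratio of RRAGC to RRAGD was 0.996 and 0.899 in shLDHA libraries 1 and 2, against 1.99 and 1.99 in shGFP libraries 1 and 2, so that RagC and RagD transcripts stood at like FPKM in shLDHA cells and RagC transcripts led in shGFP cells. Another annotated gene on the same strand overlaps 44.1% of the exons of RRAGC, so the assignment of its reads is uncertain.

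The lysosomal amino acid branch holds several genes whose promoters carry CACGTG, an E-box bound by basic helix-loop-helix factors that include the TFEB family. CACGTG, which reads the same on both strands, was searched in the 250 bases before the RefSeq start site (GRCh38.p14), and 6.34% of 35116 such windows held it. Of 35 members with a window, 7 held it, and of 13 called members with a window, 4 did. Of the 11 higher members, 7 had a window and 3 of these held the motif. Of the 6 lower members, 6 had a window and 1 held the motif. The sequences of these 4 called members are shown because 3 of them belong to TSC and Ragulator genes that rose and 1 to a gene that fell, with CACGTG in capitals, 5′ to 3′ on the strand of the gene.
LAMTOR4 (chr7:100148877-100148917, plus strand): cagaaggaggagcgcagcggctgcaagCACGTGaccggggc
LAMTOR1 (chr11:72103430-72103489, minus strand): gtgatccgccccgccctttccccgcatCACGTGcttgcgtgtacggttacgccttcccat
TSC2 (chr16:2047844-2047903, plus strand): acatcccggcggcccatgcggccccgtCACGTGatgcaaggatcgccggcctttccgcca
FNIP1, farther match (chr5:131797160-131797219, minus strand): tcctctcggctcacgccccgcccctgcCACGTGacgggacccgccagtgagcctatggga
FNIP1, nearer match (chr5:131797079-131797138, minus strand): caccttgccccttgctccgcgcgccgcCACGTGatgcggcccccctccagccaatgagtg
RRAGB and RRAGC, which were not called, and PPARGC1A, which was not tested, held the motif as well. A match is a description of the sequence, and binding was not measured.

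Among the regulators of the Rag GTPases, CASTOR1 rose and FNIP1 fell. CASTOR1, the cytosolic arginine sensor that restrains mTORC1 when arginine is scarce (chr22:30681106-30685611, minus strand, 9 exons), had 6.86 and 6.85 scaled FPKM in shLDHA libraries 1 and 2, against 2.79 and 3.34 in shGFP libraries 1 and 2. This was the largest rise of the members, 2.21-fold (log2 fold change 1.14, SE 0.15, limma adjusted p = 0.0133), and it was also called in the values as deposited. Another annotated gene on the same strand overlaps 83.9% of its exons, so the assignment of its reads is uncertain. FNIP1, the partner of folliculin (FLCN) (chr5:130977407-131132710, minus strand, 18 exons), had 0.58 and 0.50 scaled FPKM in shLDHA cells, against 1.24 and 1.34 in shGFP cells. It showed the largest fall, a log2 fold change of -1.13 (SE 0.27, limma adjusted p = 0.0404), from the lowest FPKM of the tested members. Without shLDHA library 1 the adjusted p of FNIP1 was 0.0583, and without shLDHA library 2 it was 0.0789.

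FLCN, which with FNIP1 acts as the GTPase-activating protein of RagC and RagD, stood at 12.7 and 12.6 scaled FPKM in shLDHA cells, against 30.9 and 16.98 in shGFP cells. Both shLDHA values were lower, but the shGFP libraries lay far apart, and the gene was not called (log2 fold change -0.85, SE 0.30, limma adjusted p = 0.0965). Another annotated gene on the same strand overlaps 31.2% of the exons of FLCN. The GATOR1 genes DEPDC5, NPRL2 and NPRL3, whose complex switches off RagA and RagB, were not called, with log2 fold changes of 0.09, 0.42 and 0.53. For DEPDC5 the shLDHA libraries disagreed, at 5.94 and 2.05 scaled FPKM on either side of 3.29 and 3.257 in shGFP cells. Its direction depended on which shLDHA library was left out. Without shLDHA library 2 the log2 fold change of DEPDC5 was 0.84, and without shLDHA library 1 it was -0.66. Another annotated gene on the same strand overlaps 27.6% of the exons of DEPDC5. NPRL3 came nearest to a call (limma adjusted p = 0.0575), with 70.1 and 53.7 scaled FPKM in shLDHA cells, against 43.4 and 41.4 in shGFP cells.

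The outputs are the S6 kinases (RPS6KB1, RPS6KB2), the 4E-BP repressors of cap-dependent translation (EIF4EBP1, EIF4EBP2), the AMPK substrate TBC1D1 and the coactivator PPARGC1A. EIF4EBP2 (chr10:72163901-72188374, plus strand, 3 exons) fell, with 7.74 and 8.11 scaled FPKM in shLDHA libraries 1 and 2, against 14.6 and 13.4 in shGFP libraries 1 and 2 (log2 fold change -0.81, SE 0.10, limma adjusted p = 0.0131). It kept its call in 10 of 11 alternatives, and it has annotated pseudogene copies. EIF4EBP1, the paralogue with the higher FPKM, had 816 and 627 scaled FPKM in shLDHA cells, against 626 and 629 in shGFP cells, and was not called (log2 fold change 0.19, limma adjusted p = 0.359). Without shLDHA library 2 its log2 fold change was 0.38. EIF4EBP1 exceeded EIF4EBP2 by 105-fold and 77.3-fold in shLDHA libraries 1 and 2, against 42.9-fold and 47.0-fold in shGFP libraries 1 and 2. This ratio keeps the trend with transcript length and GC content. With offsets for both, the log2 fold changes were -0.74 for EIF4EBP1 and -0.36 for EIF4EBP2.

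RPS6KB1, the gene of S6K1, had 1.40 and 0.90 scaled FPKM in shLDHA cells, against 2.45 and 2.07 in shGFP cells, and was not called (log2 fold change -0.94, SE 0.29, limma adjusted p = 0.0705). RPS6KB2, the gene of S6K2, had a log2 fold change of 0.32 and was not called. An annotated gene on the other strand overlaps 27.1% of its exons. The ratio of RPS6KB2 to RPS6KB1 was 113 and 138 in shLDHA libraries, against 45.8 and 54.5 in shGFP libraries. RPS6KB2 thus had the higher FPKM in all 4 libraries. With offsets for length and GC content the log2 fold changes lay closer together, at -0.33 for RPS6KB2 and -0.65 for RPS6KB1. TBC1D1, a Rab regulator of glucose transporter traffic, was not called (log2 fold change -0.14). PPARGC1A, the gene of the mitochondrial coactivator PGC-1α, was at 0 FPKM in all 4 libraries.

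**Figure D3:**
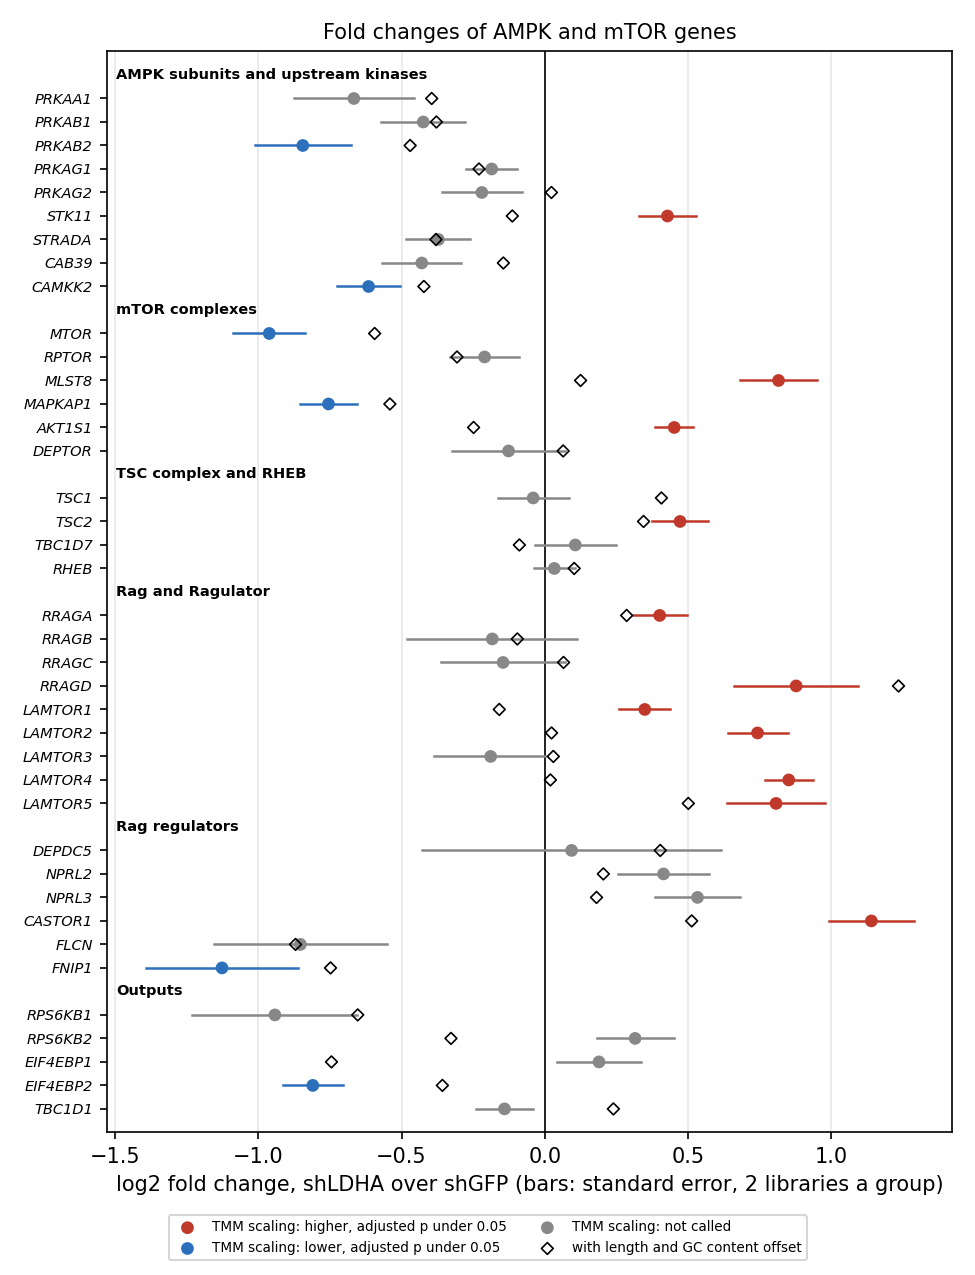
Log2 fold change of shLDHA over shGFP (horizontal axis, bars are the standard error, 2 libraries a group) of the 39 tested members by role, coloured by call, with open diamonds for the fit with a transcript length and GC content offset. The diamonds of LAMTOR2 and LAMTOR4 lie near 0 at 0.02, whereas those of MTOR and MAPKAP1 stay at -0.59 and -0.54.

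The members that rose and fell differed in the length and base composition of their transcripts. The canonical transcripts of the higher members had a median of 1599 bases (594 to 6415) and 59.9% GC, against 5956 bases (3369 to 8721) and 47.4% GC in the lower members. Of 13 members under 2000 bases, 8 were higher and none lower, and of 26 members of 2000 bases or more, 3 were higher and 6 lower. The same trend ran through the table: the median log2 fold change was 0.56 in the shortest 1199 of 11984 genes with a length and -0.43 in the longest 1199. Of these shortest genes 38.8% were higher and 3.3% lower, and of these longest genes 4.6% were higher and 20.4% lower. Of all genes of 1633 to 2096 bases, 28.4% were higher and 9.4% lower. Across genes, which are not independent replicates, Spearman's rho of fold change and length was -0.60 over the 39 members and -0.42 over the 11984 genes, and with GC content it was 0.54 and 0.40.

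**Figure D4:**
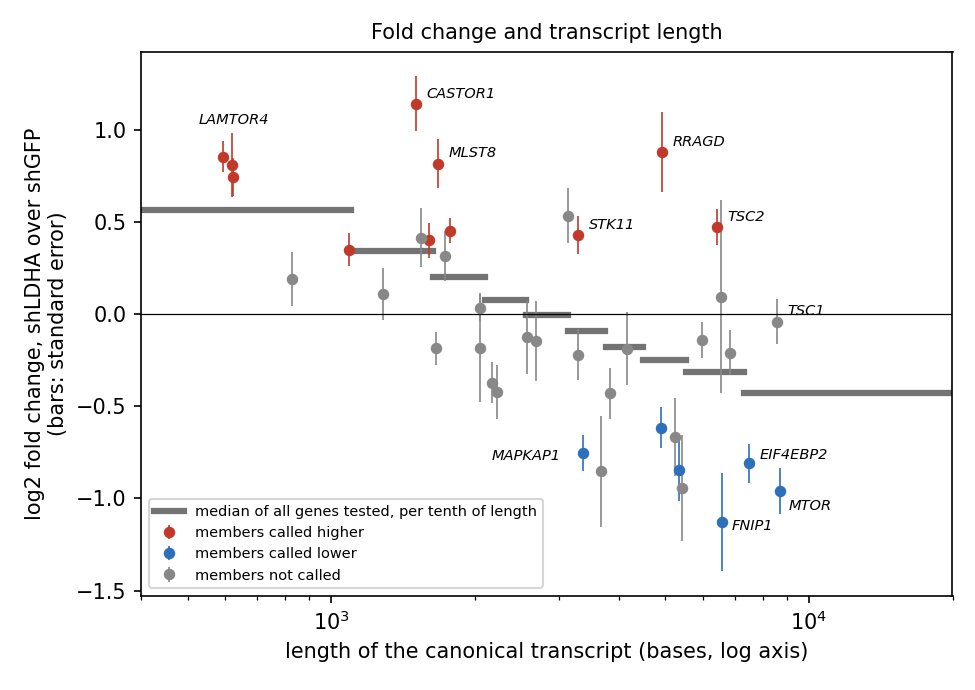
Log2 fold change of shLDHA over shGFP (vertical axis, bars are the standard error) against the length of the canonical transcript in bases (horizontal log axis) for the 39 members, with grey lines for the median of all genes in each of 10 classes of length. The higher members LAMTOR2, LAMTOR4 and LAMTOR5 are among the shortest, and RRAGD and TSC2 are higher members at 4923 and 6415 bases.

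When an offset per library removed the trend with length, 5 members were higher (15.9% of genes) and 5 lower (13.5% of genes). STK11, TSC2, RRAGD, NPRL3 and CASTOR1 were the higher ones and PRKAG1, STRADA, MTOR, MAPKAP1 and EIF4EBP2 the lower ones, so that NPRL3, PRKAG1 and STRADA were added to the calls made after TMM scaling. With offsets for length and GC content, 3 were higher (10.8% of genes) and 3 lower (10.6% of genes). The higher ones were then TSC2 (log2 fold change 0.35, limma adjusted p = 0.0414), RRAGD (1.24, 0.0242) and LAMTOR5 (0.50, 0.0209). The lower ones were MTOR (-0.59, 0.0422), MAPKAP1 (-0.54, 0.0237) and EIF4EBP1, whose log2 fold change was -0.74 with these offsets (limma adjusted p = 0.0465) and 0.19 without them. LAMTOR2 and LAMTOR4, with some of the smallest p-values after TMM scaling, had log2 fold changes of 0.02 each, and STK11 and AKT1S1 turned to -0.11 and -0.25. MTOR, MAPKAP1, TSC2, RRAGD and LAMTOR5 were thus called both after TMM scaling alone and with the length and GC content offsets, and the other 12 called members were not.

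**Figure D5:**
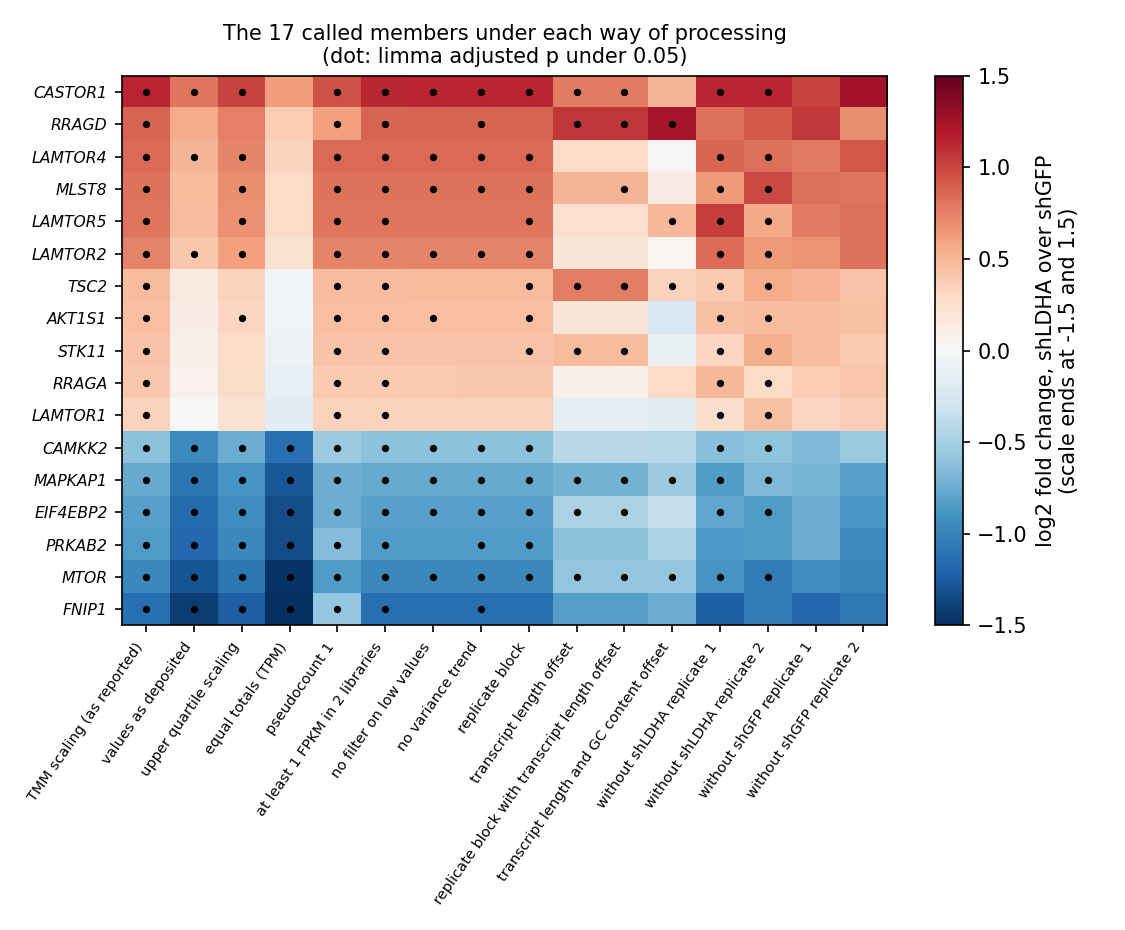
Log2 fold change of shLDHA over shGFP (colour, red higher and blue lower, the scale ends at -1.5 and 1.5) of the 17 called members in rows under each way of processing in columns, with a dot where the limma adjusted p is under 0.05. The dots of MTOR and MAPKAP1 are missing only in the columns that leave out an shGFP replicate.

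Of 83 further genes of these pathways, 79 were tested, and 13 were higher and 10 lower in shLDHA cells, which is 16.5% and 12.7%, beside 18.1% and 12.9% of all rows. The median log2 fold change of the 79 was -0.08. Among 14 tested genes that were other AMPK pathway members or LKB1-dependent kinases, 2 were higher and 1 lower. MARK4, a microtubule-affinity regulating kinase, had 113 and 78.4 deposited FPKM in shLDHA cells, against 68.1 and 70.8 in shGFP cells, a log2 fold change of 0.78 after scaling. CAB39L, the paralogue of CAB39, had a log2 fold change of 1.07, and MAP3K7, the gene of the kinase TAK1, one of -0.87. Of 12 AMPK substrates, limma called 0, with 2 higher (MFF and ULK1) and 1 lower (PFKFB2) at an unadjusted p under 0.05, genes that were picked here after their values were seen. ULK1, the autophagy kinase, had 9.67 and 8.74 deposited FPKM in shLDHA cells, against 9.84 and 9.29 in shGFP cells (log2 fold change after scaling 0.28, limma adjusted p = 0.1004).

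Among 16 other amino acid sensing genes, KPTN, a KICSTOR subunit, was higher (log2 fold change 0.97), and SESN2, a leucine sensor, and LARS1, the leucyl-tRNA synthetase, were lower (-0.47 and -0.60). The growth factor and mTORC2 arm had 7 higher and 4 lower of 19, which is 36.8% and 21.1%, beside 18.1% and 12.9% of all rows. NDRG1, a target of the mTORC2 substrate SGK1 and a hypoxia-responsive gene, had 432 and 344 deposited FPKM in shLDHA cells, against 202 and 203 in shGFP cells (log2 fold change after scaling 1.27, SE 0.08, limma adjusted p = 0.00756). PRR5, a subunit of mTORC2, had a log2 fold change of 1.16, DDIT4, a stress-induced inhibitor of mTORC1 also called REDD1, one of 1.01, and TTI1, which helps assemble the mTOR complexes, one of -1.0. Of 18 mTORC1 effectors 3 were higher and 3 lower, 16.7% in either direction, near the 18.1% and 12.9% of all rows. The higher ones included MAF1, the repressor of RNA polymerase III (1.05), and EEF2, the elongation factor (0.71). The lower ones included LARP1, which binds terminal oligopyrimidine mRNAs (-0.81), and EIF4G1, the scaffold of cap-dependent initiation (-0.58). All 4 were also called with the length and GC content offsets, MAF1 at a log2 fold change of 0.38, EEF2 at 0.43, LARP1 at -0.54 and EIF4G1 at -0.53. So were MARK4, CAB39L, SESN2, NDRG1, PRR5 and TTI1. MAP3K7 (-0.56, limma adjusted p = 0.0839), KPTN (0.36, 0.162) and LARS1 (-0.26, 0.188) were not called with these offsets. DDIT4 had no length assigned and was not fitted with them.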

How the data were processed

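RNA-Seq of B-CPAP cells gave 4 libraries, 2 shLDHA and 2 shGFP, from a kit whose protocol states no strand marking. The authors deposited FPKM, which carry decimals and are not counts, whatever the name of the table. The methods name Trim Galore, STAR on hg19, HTSeq, GENCODE and TMM scaling in edgeR, whereas HISAT2 and hg38 stand in the submitters' processing notes beside Trim Galore. Which tool made the FPKM, and from which build, was not given in the sources used here. FPKM keep no read counts, so the study's count test was replaced by limma (version 3.58.1 in R 4.3.3) with the same comparison.

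Of 59108 rows, 224 with no gene name and 27 with a date in place of a name were left out. Rows with at least 0.5 FPKM in 2 or more libraries were scaled by unweighted TMM (0.3 of the M values and 0.05 of the A values trimmed at either end). Values of log2(FPKM + 0.1) were then tested with a variance trend, Benjamini-Hochberg adjustment over all rows and a threshold of 0.05. The fit was tested on simulated data. Standard errors use limma's moderated variance. No exact permutation p is printed, since 2 libraries a group allow none below 0.333. The depth was estimated from steps between low values of single-exon genes, where 75.2% to 81.0% of values came within 0.15 of a whole fragment, so it is approximate and no fragment counts were tested. Transcript lengths, GC content and coordinates come from GENCODE version 44 on GRCh37 by symbol. Promoter windows come from RefSeq on GRCh38.p14.

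The members and lists were chosen with earlier results of these data known. Called members are given with the value of every library, as are PRKAA1, PRKAA2 and PPARGC1A, and up to 4 called genes with the lowest p are named from each list of other pathway genes. The alternatives were other scalings, filters, a pseudocount of 1, no variance trend, a replicate block, length and GC content offsets (splines with 5 degrees of freedom) and leaving out each library.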

Additional observations from a re-analysis of the deposited data

Results flagged for a closer look

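Rows with no gene name, which no comparison used, held 3.53% of the FPKM total in shLDHA library 2, against 0.440% in shLDHA library 1 and 0.431% and 0.361% in shGFP libraries 1 and 2. The highest such row had 19906 FPKM in shLDHA library 2 and 2310 FPKM in shLDHA library 1, against 1910 and 1646 FPKM in shGFP libraries 1 and 2. What this row holds was not tested. Without shLDHA library 2, MTOR had a log2 fold change of -1.05 and CASTOR1 one of 1.14.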

How the results depend on the processing

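Of the members, 11 were higher and 6 lower as reported. The count of higher members was 3 as deposited, 6 with upper quartile scaling, 0 with TPM (limma, 1 at an unadjusted p under 0.05), 5 without a filter, 5 without a variance trend, 5 with the length offset and 3 with the length and GC content offset. The count of lower members was 11 as deposited, 16 with TPM and 3 with the length and GC content offset. Over all genes, 2410 were higher as reported, 904 as deposited, 1895 with upper quartile scaling and 608 with TPM. Without a filter 1648 of 22087 were higher, and 1736 without a variance trend. Of 11984 genes, 1904 were higher with the length offset and 1294 with the length and GC content offset. Lower were 1709 as reported, 3114 as deposited, 4518 with TPM, 998 without a filter and 1265 with the length and GC content offset. Leaving out each library in turn gave 0 to 14 members higher, 0 to 7 lower, 0 to 2729 genes higher, 0 to 1788 lower, and a members' median of -0.221 to 0.0193. The counts of 0 came without either shGFP library, with 2095 and 2241 genes higher and 1324 and 1455 lower at an unadjusted p under 0.05 by limma. The members' median was -0.13 as reported, -0.46 as deposited, -0.25 with upper quartile scaling, -0.63 with TPM and -0.10 with the length and GC content offset.

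Among called members, directions turned with TPM for STK11 (-0.0917), AKT1S1 (-0.0681), TSC2 (-0.0464), RRAGA (-0.12) and LAMTOR1 (-0.17), with the length offset for LAMTOR1 (-0.14, and -0.14 with the block), and with the length and GC content offset for STK11 (-0.11), AKT1S1 (-0.25) and LAMTOR1 (-0.16). EIF4EBP1 was called lower with the length and GC content offset (-0.74) and was also negative with TPM (-0.33) and the length offset (-0.36). Without shLDHA library 2 it was positive (0.38). With TPM, 5 other members that were not called turned negative: TBC1D7, RHEB, DEPDC5, NPRL2 and RPS6KB2. The cause was not tested. A pseudocount of 1 or a filter at 1 FPKM changed no call of a member.

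Replicate numbers are shared between the groups, but the labels do not say what they share, and the deviations of same-numbered libraries correlated at 0.118 over 2 pairs, so they were not treated as pairs. With a replicate block 9 members were higher and 5 lower, and 2209 genes were higher and 1233 lower. With the block and the length offset 6 members were higher and 7 lower, beside 1961 and 1541 of 11984 genes.

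With 2 libraries a group and depth known only approximately, the standard errors set the precision, and the widest were those of DEPDC5 (0.52), FLCN (0.30), RRAGB (0.30) and RPS6KB1 (0.29).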
